A study of Mus musculus with 4 samples.

Results

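Erythroid precursor genes were followed in the periodontal ligament (PDL), the connective tissue that holds a tooth root in its bony socket. The set was chosen by name, with earlier results of these data known. It holds 9 genes: Klf1, Hemgn, Slc4a1, Epb42, Rhag, Car1, Alas2, Hbb-b2 and Ahsp. Probes were found through the RefSeq accession of the array design for 8 of these 9, out of 22911 genes with a named probe in all, and the values below are of these 8. Where a gene had more than 1 probe, the one with the highest mean log2 signal stood for it. The tissue came from Mkx-KO and wild-type (WT) mice, at 10 and at 4 weeks of age. Mkx is the gene of Mohawk, a homeobox factor that tendon and ligament cells use. The 4 groups were thus Mkx-KO at 10 weeks, WT at 10 weeks, Mkx-KO at 4 weeks and WT at 4 weeks, with 1 one-colour Agilent array each. The labels give neither how Mkx was deleted nor the strain, sex or number of mice behind an array.

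Red cells form in marrow from progenitors that pass through nucleated erythroblast stages. Under transcription factors such as GATA1 and KLF1 these cells make haem and globin and build the red cell membrane, then expel the nucleus and become reticulocytes, which still carry globin RNA. Ligament cells themselves are fibroblasts, and the cells known to make such transcripts lie in blood and in the marrow of the adjoining jaw bone. In bulk tissue, fewer cells of a type and less RNA per cell cannot be told apart.

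The erythroid genes fell into patterns that ran differently over the 4 arrays. Klf1, Slc4a1, Epb42, Rhag and Car1 had their highest level on the Mkx-KO array at 10 weeks. Alas2 and Hbb-b2 had their highest level on the WT array at 4 weeks and their lowest on the WT array at 10 weeks. Hemgn was nearly level by its brighter probe, whereas its dimmer probe was highest on the Mkx-KO array at 10 weeks. All 8 genes were higher in Mkx-KO than in WT at 10 weeks, with a median log2 difference of 0.75, though with normexp background correction the brighter Hemgn probe was at -0.04. At 4 weeks 7 of 8 were lower in Mkx-KO than in WT and the median was -0.45, and with normexp Epb42, the eighth, was at -0.02.

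RefSeq promoter windows, on build GRCm38.p6, were at hand for 5 of the genes, and those of a nuclear factor pair, a membrane protein and the haem enzyme are printed because their genes stand for the different patterns over the arrays. Each window holds the 250 bases before the annotated start, 5′ to 3′ on the strand of the gene. Capitals mark matches, on either strand, to the core that GATA factors bind (AGATAA, the same with a first T as TGATAA, and both ending in G, which are AGATAG in the one case and TGATAG in the other) and to the CCNCNCCC box of KLF factors.
Klf1 (chr8:84901732-84901981, plus strand): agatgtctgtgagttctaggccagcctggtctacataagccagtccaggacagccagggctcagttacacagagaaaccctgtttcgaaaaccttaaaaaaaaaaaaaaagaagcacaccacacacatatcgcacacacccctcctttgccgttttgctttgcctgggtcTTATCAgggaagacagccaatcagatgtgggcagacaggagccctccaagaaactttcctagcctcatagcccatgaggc
Hemgn (chr4:46404184-46404433, minus strand): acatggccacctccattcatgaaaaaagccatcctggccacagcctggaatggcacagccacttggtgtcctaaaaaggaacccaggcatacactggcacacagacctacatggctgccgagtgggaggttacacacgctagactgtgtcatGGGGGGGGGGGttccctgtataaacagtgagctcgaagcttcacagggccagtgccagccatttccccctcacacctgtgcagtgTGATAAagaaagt
Epb42 (chr2:121036878-121037127, minus strand): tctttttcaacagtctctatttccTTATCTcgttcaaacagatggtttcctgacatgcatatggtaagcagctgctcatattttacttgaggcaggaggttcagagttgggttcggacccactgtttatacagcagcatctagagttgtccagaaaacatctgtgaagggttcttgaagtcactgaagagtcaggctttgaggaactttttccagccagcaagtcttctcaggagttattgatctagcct
Alas2 (chrX:150547167-150547416, plus strand): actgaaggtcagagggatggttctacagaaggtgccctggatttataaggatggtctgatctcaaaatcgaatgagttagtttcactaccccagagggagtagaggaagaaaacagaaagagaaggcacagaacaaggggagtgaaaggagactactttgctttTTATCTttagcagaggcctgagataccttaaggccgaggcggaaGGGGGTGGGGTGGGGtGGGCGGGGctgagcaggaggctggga
A GATA match was found in all 5 windows, Rhag included, against 26.5% of all 32851 RefSeq windows of this length. Its first base lay 80 bases before the start in Klf1, 13 in Hemgn, 226 in Epb42, 31 in Rhag and 86 in Alas2. The KLF box matched in 2 of the 5 windows, Alas2 and Hemgn, against 45.9% of all windows. The 4 KLF matches of Hemgn overlap each other in 1 run of G, and no KLF match overlaps a GATA match. The E-box CANNTG, not capitalised here and searched on both strands, was found in 3 of the 5 windows, those of Klf1, Hemgn and Epb42, against 66.2% of all windows. These are matches of letters and not measured binding sites, and genes of both array patterns carry the GATA core.

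Levels are log2 spot intensity minus the 75th percentile of the array, so a difference of 1 is 2-fold. A level is compared only with the level of the same probe on another array. The error given with each difference is technical: it combines the scanner software's error estimates of both spots and does not cover variation between mice. From 61.8% to 66.6% of spots were well above background on the arrays, and no spot was saturated. All 8 genes were well above background on all 4 arrays, with 1 spot each. As a check of the labels, Mkx had levels of -1.26 in Mkx-KO and 0.84 in WT at 10 weeks, and of -0.57 in Mkx-KO and 1.08 in WT at 4 weeks. Mkx-KO against WT thus gave -2.10 ± 0.21 at 10 weeks and -1.65 ± 0.21 at 4 weeks for Mkx itself, and whether its probe lies in the deleted stretch is not given in the sources used here. The 8 ligament markers Postn, Col1a1, Col3a1, Col12a1, Aspn, Scx, Tnmd and Fmod were well above background on all 4 arrays. Their median log2 difference between Mkx-KO and WT was 0.15 at 10 weeks and 0.05 at 4 weeks. Single markers ran from -0.28 (Tnmd) to 0.71 (Scx) at 10 weeks and from -0.35 (Aspn) to 0.43 (Fmod) at 4 weeks. For 10 against 4 weeks the median was -0.165 in Mkx-KO, with 2 of the 8 higher, and -0.26 in WT, with 0 of the 8 higher.

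Klf1 encodes the transcription factor that switches on adult beta-globin and many other red cell genes. Its level was -1.26 in Mkx-KO and -2.25 in WT at 10 weeks, and -2.63 in Mkx-KO and -2.11 in WT at 4 weeks. The Mkx-KO array at 10 weeks stood highest and the Mkx-KO array at 4 weeks lowest, and the WT arrays lay close together between them. The log2 difference between Mkx-KO and WT was 0.99 ± 0.21 at 10 weeks and -0.52 ± 0.23 at 4 weeks. Between 10 and 4 weeks Klf1 differed by 1.37 ± 0.22 in Mkx-KO and by -0.14 ± 0.22 in WT, the last within its technical error. The other Klf1 probe gave 1.13 ± 0.22 for Mkx-KO against WT at 10 weeks, -0.33 ± 0.24 at 4 weeks and 1.45 ± 0.22 for 10 against 4 weeks in Mkx-KO, with the arrays in the same order.

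Hemgn encodes hemogen, a nuclear protein of blood cell precursors. Its brighter probe had levels of 5.002 in Mkx-KO and 4.92 in WT at 10 weeks, and of 4.71 in Mkx-KO and 4.76 in WT at 4 weeks. The spread over the 4 arrays was 0.30, below the median spread of 0.51 over 15504 genes, and the genotype differences of 0.08 ± 0.20 at 10 weeks and -0.06 ± 0.20 at 4 weeks were within their technical error. The dimmer Hemgn probe had levels of -0.25 in Mkx-KO and -0.95 in WT at 10 weeks, and of -2.04 in Mkx-KO and -1.52 in WT at 4 weeks. By this probe Hemgn was highest on the Mkx-KO array at 10 weeks and lowest on that at 4 weeks, as Klf1 was. Its differences were 0.71 ± 0.21 for Mkx-KO against WT at 10 weeks, -0.52 ± 0.21 at 4 weeks, and 1.79 ± 0.21 for 10 against 4 weeks in Mkx-KO. The probes of Hemgn thus disagree in size, and the counts and medians of the 8 genes below use the brighter one.

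**Figure D1:**
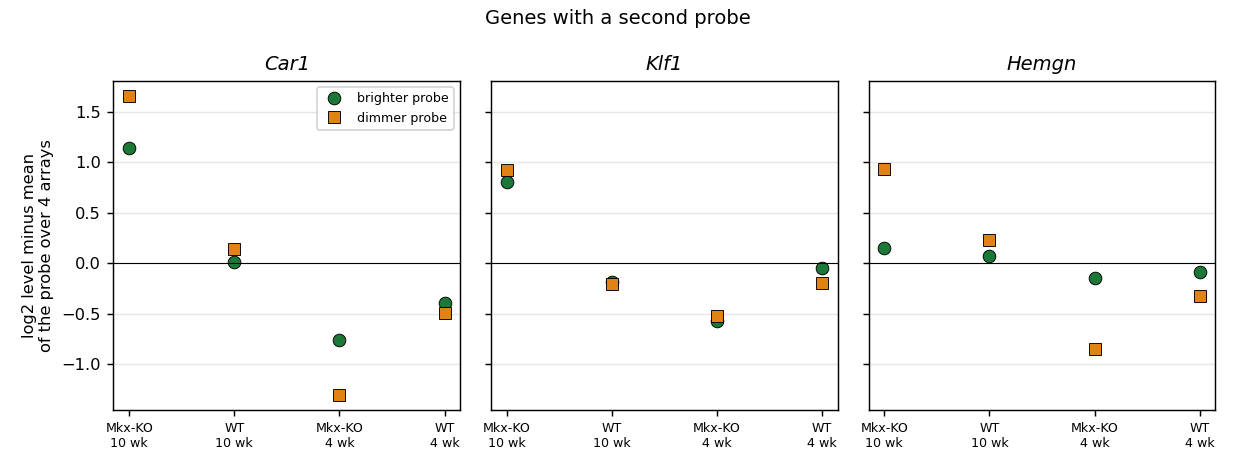
Levels of the brighter (green circles) and dimmer (orange squares) probe of Car1, Klf1 and Hemgn on each array, as log2 level minus the mean of that probe over the 4 arrays. Both probes of Car1 and of Klf1 are highest on the Mkx-KO array at 10 weeks, while the brighter Hemgn probe spans 0.30 and the dimmer one is highest on the Mkx-KO array at 10 weeks and lowest on that at 4 weeks.

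Slc4a1 encodes band 3, the chloride and bicarbonate exchanger of the red cell membrane. Its level was 3.69 in Mkx-KO and 3.15 in WT at 10 weeks, and 2.91 in Mkx-KO and 3.05 in WT at 4 weeks. The Mkx-KO array at 10 weeks was above the other arrays, which lay between 2.91 and 3.15. Mkx-KO against WT gave 0.53 ± 0.20 at 10 weeks and -0.13 ± 0.20 at 4 weeks, the last within its technical error. Epb42 encodes protein 4.2, which ties band 3 to ankyrin in the membrane skeleton. Its level was -1.83 in Mkx-KO and -2.62 in WT at 10 weeks, and -3.04 in Mkx-KO and -3.11 in WT at 4 weeks. The arrays at 4 weeks could not be told apart, with a difference of 0.06 ± 0.26, while the Mkx-KO array at 10 weeks was higher than WT by 0.79 ± 0.22. Epb42 was the one gene of the 8 with a positive genotype difference at both ages, though with normexp the value at 4 weeks was -0.02.

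Rhag encodes the Rh-associated glycoprotein, an ammonium transporter that the Rh blood group complex needs to reach the membrane. Its level was -2.01 in Mkx-KO and -3.05 in WT at 10 weeks, and -4.04 in Mkx-KO and -3.52 in WT at 4 weeks. The spots were dim, with processed signals of 64.6 in Mkx-KO and 37.3 in WT at 10 weeks, and of 17.5 in Mkx-KO and 23.3 in WT at 4 weeks, and the technical error was wider than for the other genes. It was higher in Mkx-KO than in WT by 1.05 ± 0.23 at 10 weeks, and differed by -0.52 ± 0.34 at 4 weeks. Car1 encodes carbonic anhydrase 1, a soluble enzyme that red cell precursors make in quantity. Its level was 0.03 in Mkx-KO and -1.10 in WT at 10 weeks, and -1.88 in Mkx-KO and -1.51 in WT at 4 weeks. Both arrays at 10 weeks were above both arrays at 4 weeks, and Mkx-KO was the higher at 10 weeks and the lower at 4 weeks. The difference between Mkx-KO and WT was 1.13 ± 0.21 at 10 weeks and -0.37 ± 0.22 at 4 weeks. The dimmer Car1 probe gave larger values of the same sign, 1.52 ± 0.21 at 10 weeks and -0.81 ± 0.28 at 4 weeks. Over the 4 arrays the centred levels of Car1 and Rhag lay closest of any pair of the set, at a root mean square distance of 0.07.

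Alas2 encodes the erythroid 5-aminolevulinate synthase, which makes the first and rate-limiting step of haem synthesis in red cell precursors. Its processed signal was 5897 in Mkx-KO and 5034 in WT at 10 weeks, and 12134 in Mkx-KO and 26724 in WT at 4 weeks. On the log2 scale its level was 4.51 in Mkx-KO and 4.03 in WT at 10 weeks, and 5.40 in Mkx-KO and 6.65 in WT at 4 weeks. Both arrays at 4 weeks lay above both at 10 weeks, with WT the higher at 4 weeks and the lower at 10 weeks. Mkx-KO against WT gave 0.48 ± 0.20 at 10 weeks and -1.24 ± 0.20 at 4 weeks. Between 10 and 4 weeks Alas2 differed by -0.90 ± 0.20 in Mkx-KO and by -2.62 ± 0.20 in WT.

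Hbb-b2 encodes an adult beta-globin chain, which pairs with alpha-globin in haemoglobin. Its level was 7.16 in Mkx-KO and 6.45 in WT at 10 weeks, and 7.81 in Mkx-KO and 8.53 in WT at 4 weeks. The order of the arrays was that of Alas2, and the root mean square distance between the centred levels of these genes was 0.28. Mkx-KO against WT gave 0.71 ± 0.20 at 10 weeks and -0.72 ± 0.20 at 4 weeks, and 10 against 4 weeks gave -0.65 ± 0.20 in Mkx-KO and -2.07 ± 0.20 in WT. The adult beta-globin genes are near-identical copies, so a probe may take up RNA of its neighbours and the gene behind this signal is uncertain. Hbb-b1 and Hbb-bt, of the same cluster, had the same order of arrays, with 10 against 4 weeks in WT at -2.67 for Hbb-b1 and -1.27 for Hbb-bt. The alpha-globin genes Hba-a1 and Hba-a2 did not: over the arrays Hba-a1 spanned 9.59 to 9.83 and Hba-a2 9.52 to 9.79. Their processed signals were among the brightest of the globin list, 235285 to 249170 for Hba-a1 and 226425 to 240786 for Hba-a2. Whether spots this bright still follow the amount of RNA was not tested. The embryonic genes Hbb-y and Hba-x were not well above background on any array, and Hbb-bh1 was on 3 of the 4, with -0.31 for Mkx-KO against WT at 10 weeks. Over the globin list, 5 of 6 measured genes were higher in Mkx-KO at 10 weeks (median 0.46) and 0 of 5 at 4 weeks (median -0.38).

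**Figure D2:**
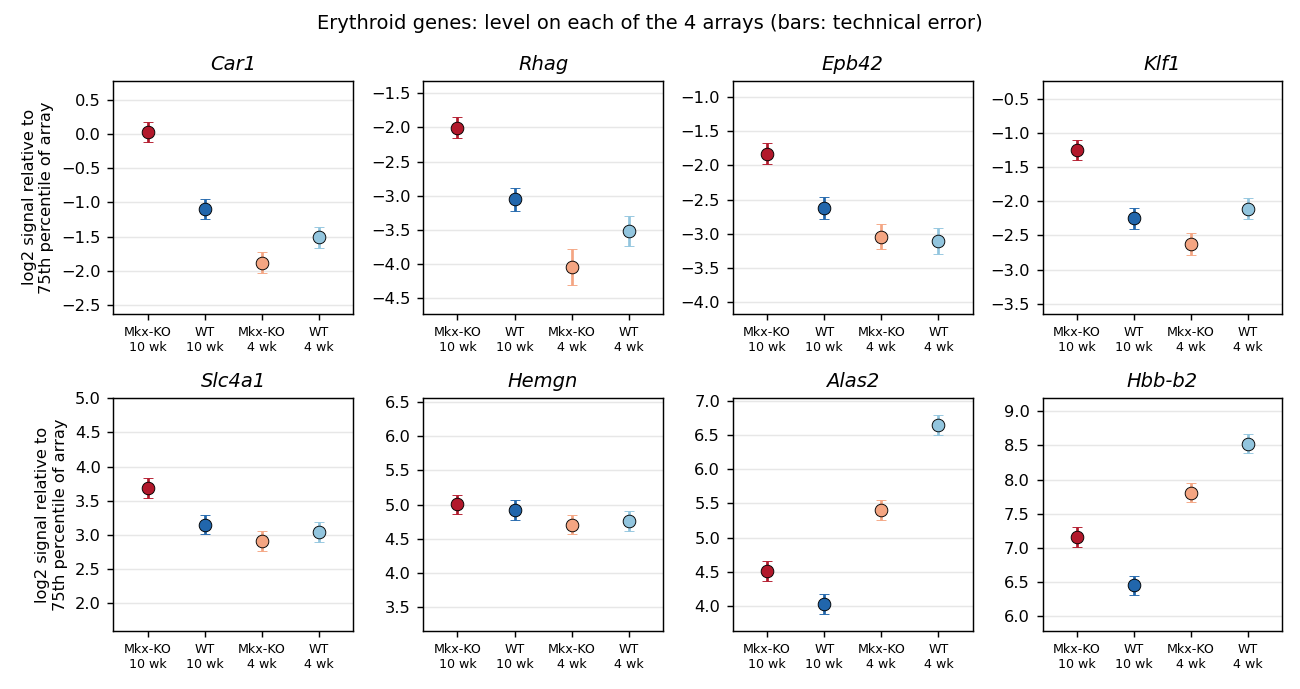
Level of each gene on the Mkx-KO and WT arrays at 10 weeks and on those at 4 weeks, in log2 units above or below the 75th percentile, 1 array per point, with bars for the technical error of the spot. Each panel is placed around the levels of its own gene. Car1, Rhag, Epb42, Klf1 and Slc4a1 are highest on the Mkx-KO array at 10 weeks, and Alas2 and Hbb-b2 on the WT array at 4 weeks.

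With 1 array per group, the difference between Mkx-KO and WT at one age is a description of a pair of arrays and has no replicate check. The set was chosen with earlier results of these data known, so its counts beside the shares of all genes are descriptions too. At 10 weeks Car1 and Rhag, which are 2 of the 8 genes, differed by 2-fold or more towards Mkx-KO, where 1.04% of the 16457 genes measured on both arrays did. None of the 8 was at least 2-fold lower, where 1.37% of genes were, and 2.41% of genes were 2-fold apart in either direction. With normexp background correction 0 of the 8 were 2-fold apart, where 150 of the 16457 genes were, and the median of the 8 was 0.48. The 8 differences ran from 0.08 (Hemgn, brighter probe) to 1.13 (Car1), and their median of 0.75 stood beside a median of 0.01 over all genes. At 4 weeks Alas2 was at least 2-fold lower, which is 1 of the 8, where 3.31% of 15686 genes were, none was at least 2-fold higher, where 0.472% were, and 3.78% of genes were 2-fold apart in either direction. With normexp the median of the 8 was -0.20. The 8 differences ran from -1.24 (Alas2) to 0.06 (Epb42), with a median of -0.45 beside 0.06 over all genes.

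The sign of the genotype difference thus turned between the ages for 7 of the 8 genes, and the share of all genes that turned was not counted. Both values of the brighter Hemgn probe and the Slc4a1 value at 4 weeks were within their technical error. With normexp the brighter Hemgn probe did not turn (-0.04 at 10 weeks and -0.05 at 4 weeks), whereas Epb42 did (0.43 and -0.02). The difference at 10 weeks minus that at 4 weeks was 1.72 ± 0.29 for Alas2, 1.57 ± 0.42 for Rhag, 1.51 ± 0.31 for Klf1, 1.498 ± 0.30 for Car1 and 1.42 ± 0.29 for Hbb-b2. These 5 of the 8 were at least 1 log2 unit higher, where 5.05% of 15504 genes were. This count depends on the background correction. With normexp the genotype differences at 10 and 4 weeks were 0.523 and -0.201 for Rhag, and 0.648 and -0.348 for Klf1. Neither gene was then 1 log2 unit higher. Without normexp, the difference at 10 weeks minus that at 4 weeks was 0.73 ± 0.34 for Epb42, 0.67 ± 0.29 for Slc4a1 and 0.13 ± 0.29 for Hemgn by its brighter probe. The 4 arrays leave no residual spread for a test of this difference, so it was not tested.

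**Figure D3:**
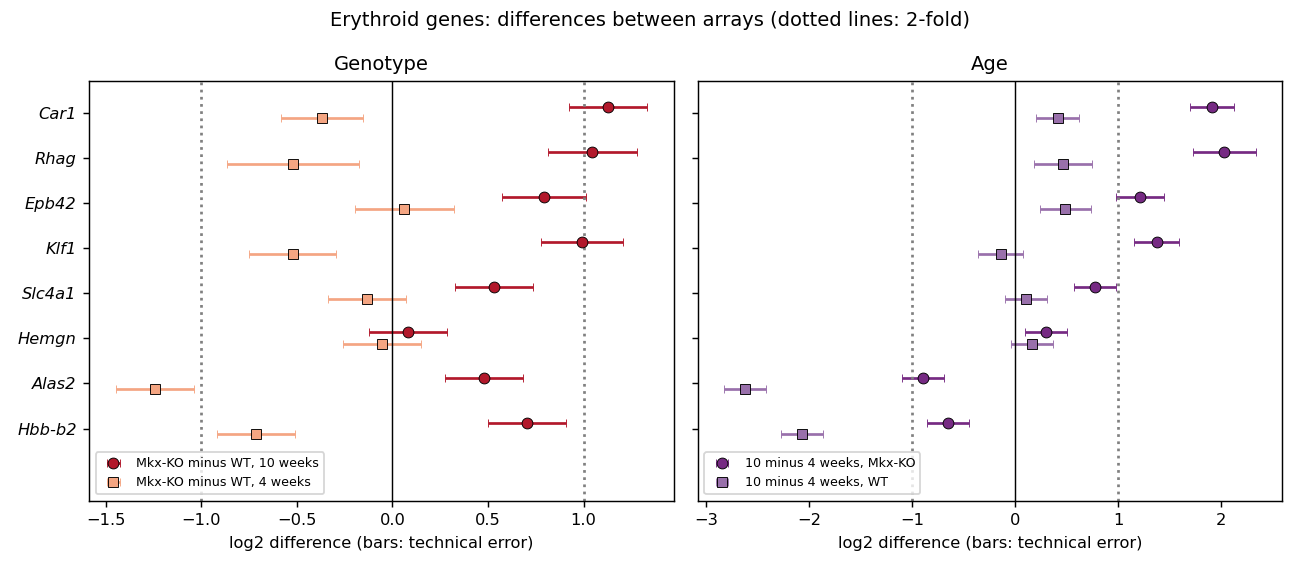
Log2 differences of the 8 genes, with bars for the technical error of the pair of spots and dotted lines at 2-fold. The left panel gives Mkx-KO minus WT at 10 weeks (circles) and 4 weeks (squares), and the right panel 10 minus 4 weeks in Mkx-KO (circles) and WT (squares). All 8 circles of the left panel lie above 0 and 7 of its 8 squares below it.

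Between the ages, 4 of the 8 genes were at least 2-fold higher at 10 than at 4 weeks in Mkx-KO, where 6.25% of 15669 genes were: Rhag at 2.03 ± 0.31, Car1 at 1.91 ± 0.21, Klf1 at 1.37 ± 0.22 and Epb42 at 1.21 ± 0.23. Slc4a1 differed by 0.77 ± 0.20 and Hemgn by 0.30 ± 0.20 with its brighter probe and 1.79 ± 0.21 with its dimmer one. None was at least 2-fold lower, where 3.84% of genes were, and 10.1% were 2-fold apart in either direction. With normexp 1 of the 8 was 2-fold apart in Mkx-KO, where 815 of the 15669 genes were, and the median of the 8 was 0.66. In WT none of the 8 was at least 2-fold higher, where 5.01% of 16102 genes were, and Alas2 and Hbb-b2, which are 2 of the 8, were at least 2-fold lower, where 3.83% were and 8.84% were 2-fold apart in either direction. The remaining genes differed in WT by -0.14 (Klf1, 0.22 with the deposited scaled values) to 0.48 (Epb42). The medians of the 8 were 0.99 in Mkx-KO and 0.13 in WT, beside medians over all genes of -0.15 in Mkx-KO and -0.10 in WT. The age comparisons use the same arrays as the genotype comparisons, so their values are not separate evidence. With the scaled values deposited by the authors, the median of all genes moved by 0.29 in Mkx-KO and by 0.36 in WT, and the share of higher genes among those at least 2-fold apart became 85.4% in Mkx-KO, in place of 62.0%, and 82.9% in WT, in place of 56.6%. The deposited values carry 1 factor per array, so all genes of a comparison shifted alike. Taken relative to all genes, the median of the 8 was 1.15 in Mkx-KO and 0.23 in WT. Neither the deposited scaling nor median centring can change these relative values, since each shifts all genes of an array alike. Their sameness is thus no check of the result.

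Across the 4 arrays, limma fitted genotype and age together for 16795 genes, with 1 residual degree of freedom. It called 0 genes for genotype and 0 for age at a Benjamini-Hochberg adjusted p of 0.05, which is 0.0% for each. An unadjusted p under that value was found for 455 genes for genotype and 4074 for age. For genotype that is fewer of the 16795 genes than would be expected to pass if no gene differed. Another background correction (normexp) called 31 genes for age and 0 for genotype. Among the 8 genes the genotype estimates ran from -0.38 with a standard error of 0.53 (Alas2) to 0.43 with a standard error of 0.25 (Epb42), and each had an adjusted p of 0.9996 in limma. For age, 10 against 4 weeks, the limma estimates were -1.76 with a standard error of 0.53 for Alas2 and 1.25 with a standard error of 0.49 for Rhag, with adjusted p of 0.206 and 0.246. The lowest adjusted p for age among the 8 was 0.204, for Epb42. A model of this form holds 1 genotype difference for both ages and so averages over differences of opposite sign. With 1 array per group, its 1 residual degree of freedom is the change of the genotype difference between the ages. The standard errors therefore do not measure variation between mice.

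Other genes of red cell formation were read in lists by role. Over all genes measured, the median difference between Mkx-KO and WT was 0.01 at 10 weeks and 0.06 at 4 weeks. Among the nuclear factors, 10 of 14 measured genes were higher in Mkx-KO at 10 weeks and 6 of 14 at 4 weeks. None of them was so by 2-fold, where 1.04% of all genes were at 10 weeks and 0.472% at 4 weeks. Gata1, the master regulator of the lineage, had levels of 0.86 in Mkx-KO and -0.08 in WT at 10 weeks, and of -1.41 in Mkx-KO and -0.55 in WT at 4 weeks, with the same highest and lowest array as Klf1. Gfi1b, a repressor needed for erythroid and megakaryocyte maturation, differed by 0.89 and -0.51 between Mkx-KO and WT at 10 and 4 weeks, and Nfe2, a factor of both lineages, by 0.76 and -0.77. Tal1, a partner of GATA1, differed by 0.55 and 0.05. Between 10 and 4 weeks, Gata1 differed by 2.27 in Mkx-KO and 0.47 in WT, and 6 of the 14 genes, Klf1 included, passed 2-fold upward in Mkx-KO, where 6.25% of all genes did, and 0 in WT, where 5.01% did.

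All 18 membrane and membrane skeleton genes were measured at 10 weeks, and 16 of them were higher in Mkx-KO. Only Rhag was at least 2-fold higher, where 1.04% of all genes were. At 4 weeks 4 of 16 measured genes were higher, and 1, Add2, was at least 2-fold lower (-1.16), where 3.31% of all genes were. Ank1, the ankyrin that anchors band 3 to the membrane skeleton, differed between Mkx-KO and WT by 0.73 at 10 weeks and -0.50 at 4 weeks, Kel, a blood group protein, by 0.71 and 0.06, and Tmod1, an actin cap of the membrane skeleton, by 0.35 and -0.73. At 10 against 4 weeks, 8 of 16 passed 2-fold upward in Mkx-KO, where 6.25% of all genes did, and 0 in WT, where 5.01% did. In WT 1 of the 16, Epb41, was at least 2-fold lower (-1.19), where 3.83% of all genes were. The list median was 1.02 in Mkx-KO and 0.22 in WT.

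The haem enzymes followed different orders over the arrays. All 8 were higher in Mkx-KO at 10 weeks, with a median of 0.32 and 0 at least 2-fold apart, and 3 of 8 were at 4 weeks. Of all genes 2.41% were 2-fold apart at 10 weeks. Fech, which puts iron into haem in the last step, had levels of 4.53 in Mkx-KO and 4.03 in WT at 10 weeks, and of 4.76 in Mkx-KO and 5.45 in WT at 4 weeks, the order of arrays that Alas2 had. Alad, the enzyme of the second step, was instead higher at 10 than at 4 weeks, by 0.50 in Mkx-KO and 0.25 in WT, as was Ppox, by 0.49 in Mkx-KO and 0.18 in WT.

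Late maturation genes were likewise split by age. Slc38a5, a glutamine transporter, differed between 10 and 4 weeks by 1.72 in Mkx-KO and 0.60 in WT, whereas Mkrn1 differed by -0.74 in Mkx-KO and -2.09 in WT. Ube2o, which tags proteins for removal in reticulocytes, differed by -0.42 in Mkx-KO and -1.19 in WT. Of the genes of erythropoietin response and iron supply, Epor, the erythropoietin receptor, differed by 1.28 in Mkx-KO and 0.70 in WT, and Tfrc, the transferrin receptor, by 1.13 in Mkx-KO and -0.03 in WT. Slc25a37, the mitochondrial iron importer mitoferrin, differed by -0.11 in Mkx-KO and -0.93 in WT. Most of this list was lower at 10 than at 4 weeks. In Mkx-KO 3 of its 8 measured genes were higher (median -0.12), and in WT 2 of 8 were (median -0.25). In Mkx-KO 2 of the 8, Epor and Tfrc, were at least 2-fold higher, where 6.25% of all genes were. At 10 weeks all 9 measured late maturation genes and all 8 iron supply genes were higher in Mkx-KO than in WT, by medians of 0.49 and 0.25. None was so by 2-fold, where 1.04% of all genes were. At 4 weeks 2 of 9 late maturation genes and 4 of 8 iron supply genes were higher in Mkx-KO.

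Of 7 measured soluble enzymes of the red cell, 5 were higher in Mkx-KO at 10 weeks (median 0.25) and 1 at 4 weeks (median -0.26). Only Car1 was at least 2-fold higher at 10 weeks, where 1.04% of all genes were. Car2, the other main carbonic anhydrase of red cells, differed between Mkx-KO and WT by 0.92 at 10 weeks and -0.32 at 4 weeks, which are the signs of Car1. Between 10 and 4 weeks Bpgm, the enzyme that makes bisphosphoglycerate, a ligand of haemoglobin, differed by -0.75 in Mkx-KO and -1.73 in WT. Of 7 genes of early progenitors, which precede the erythroblast stages, 5 were higher in Mkx-KO at 10 weeks (median 0.28) and 4 at 4 weeks (median 0.08). Kit, the stem cell factor receptor, differed by 0.29 at 10 weeks and 0.33 at 4 weeks, while Myb, a factor of immature blood cells, differed by 0.70 at 10 weeks and -0.52 at 4 weeks. Erfe, Trim58 and Pklr, of the iron, late maturation and enzyme lists, were not well above background on any array.

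**Figure D4:**
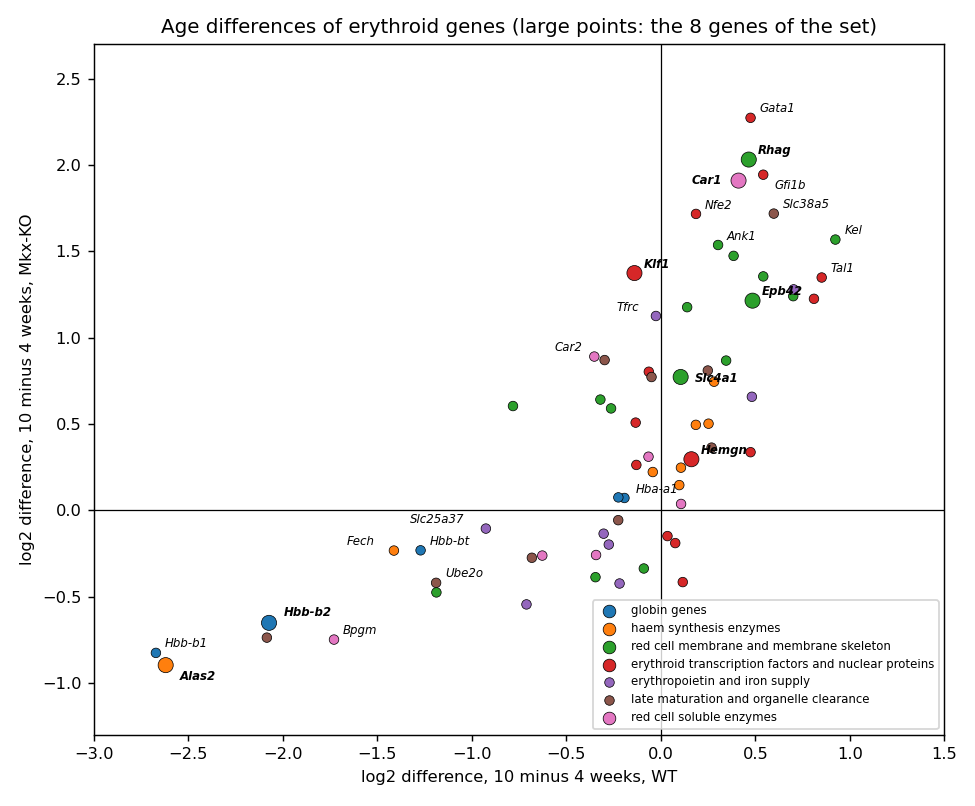
Log2 difference between 10 and 4 weeks in Mkx-KO (vertical axis) against the same in WT (horizontal axis) for genes of 7 erythroid lists well above background on all 4 arrays, coloured by list, with large points for Klf1, Hemgn, Slc4a1, Epb42, Rhag, Car1, Alas2 and Hbb-b2. Alas2 and Hbb-b2 lie at the lower left with Hbb-b1, Fech, Bpgm and Ube2o, and Rhag and Car1 at the upper right with Gata1 and Gfi1b. The axes share no array.

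The lists of other marrow cells differed between the same arrays. Of 10 megakaryocyte and platelet genes, 8 were higher in Mkx-KO at 10 weeks (median 0.83) and 1 of 9 at 4 weeks (median -0.32). At 10 weeks 3 of the 10 were at least 2-fold higher, where 1.04% of all genes were, and at 4 weeks none was 2-fold apart. Of 10 neutrophil precursor genes, 10 were higher at 10 weeks (median 0.79) and 0 at 4 weeks (median -1.26). At 10 weeks 1 of the 10 was at least 2-fold higher, and at 4 weeks 8 were at least 2-fold lower, where 3.31% of all genes were. Of 7 measured B cell precursor genes, 6 were higher at 10 weeks (median 0.76) and 2 at 4 weeks (median -1.56). At 10 weeks 1 of the 7 was at least 2-fold higher, and at 4 weeks 4 were at least 2-fold lower and 1 higher, where 0.472% of all genes were higher. Of 9 genes of the macrophages around which erythroblasts mature, 7 were higher at 10 weeks (median 0.25) and 4 at 4 weeks (median -0.05).

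The summed signal of the neutrophil list was 0.832% of that of all named genes in Mkx-KO and 0.640% in WT at 10 weeks, and 0.226% in Mkx-KO and 0.458% in WT at 4 weeks. That of 9 megakaryocyte genes well above background on all arrays was 0.0409% in Mkx-KO and 0.0386% in WT at 10 weeks, and 0.0197% in Mkx-KO and 0.0244% in WT at 4 weeks. The macrophage list made up 0.0415% in Mkx-KO and 0.0407% in WT at 10 weeks, and 0.0285% in Mkx-KO and 0.0280% in WT at 4 weeks, and 7 genes of the B cell precursor list made up 0.0063% in Mkx-KO and 0.0041% in WT at 10 weeks, and 0.0048% in Mkx-KO and 0.0067% in WT at 4 weeks. Such sums add the signals of different probes, so the brightest probes lead them. In Mkx-KO at 10 weeks the processed signal was 172507 for S100a9 and 71245 for S100a8 of the neutrophil list. It was 6017 for Pf4 and 5516 for Ppbp of the megakaryocyte list. Ppbp was lower in Mkx-KO than in WT at 10 weeks (-0.42), while 8 of the 10 genes of its list were higher. Camp, a granule peptide of neutrophil precursors, had levels of 7.04 in Mkx-KO and 6.30 in WT at 10 weeks, and of 4.25 in Mkx-KO and 5.89 in WT at 4 weeks, with the same highest and lowest array as Klf1, Rhag and Car1. Igll1, a surrogate light chain of B cell precursors, was instead highest in WT at 4 weeks, as Alas2 was. Rag1 and Rag2, of the same list, were not well above background on any array. The part of these other cells in the values of the erythroid genes was not tested.

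**Figure D5:**
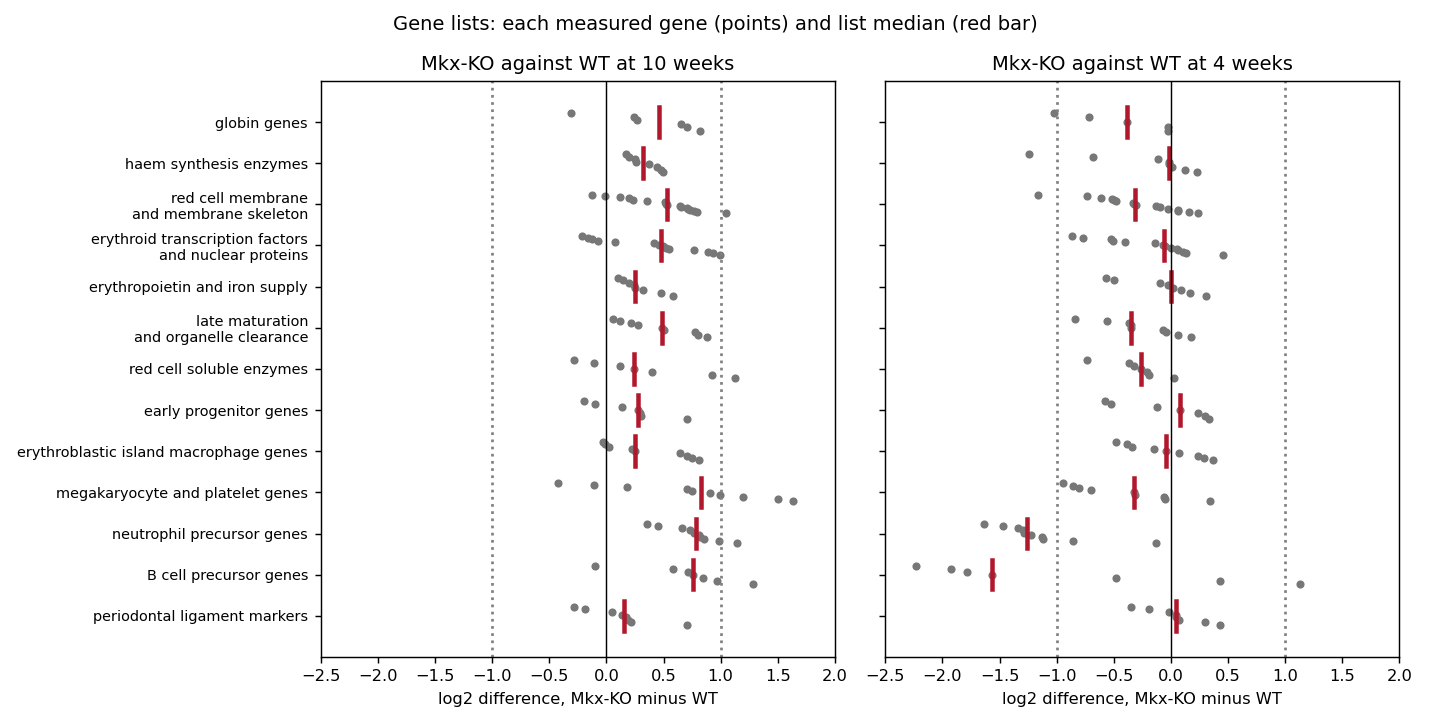
Log2 difference between Mkx-KO and WT at 10 weeks (left) and 4 weeks (right) for each measured gene of 13 lists (grey points), with the list median as a red bar and dotted lines at 2-fold. The neutrophil precursor median is 0.79 at 10 weeks and -1.26 at 4 weeks, and the periodontal ligament marker median is 0.15 and 0.05.

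Over the 4 arrays, 15504 genes were ranked by how close their levels lay to the median centred level of the 8 genes. The 8 genes, bare clone or locus numbers and numbered olfactory receptors were left out of the naming. Clec3b, Klra16, Tuba4a, Traf3ip3, Itih4, Pip5k1b, Aqp9, H2-T24 and Lman1l were among the 10 nearest that remained. The root mean square distance of these named genes ran from 0.06 (Clec3b) to 0.08 (Lman1l). The median centred level of the 8 erythroid genes was 0.65 in Mkx-KO and -0.02 in WT at 10 weeks, and -0.34 in Mkx-KO and -0.12 in WT at 4 weeks. Alas2 lay at a distance of 1.21 from that median profile and Hbb-b2 at 0.97, the farthest of the 8, and Slc4a1 at 0.09, the nearest.

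The brightness of the slide around the spots was read as well. Over 119 to 170 neighbouring spots, the median deviation around the 11 spots of the 8 genes ran from -0.08 to 0.05 log2 units.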

How the data were processed

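RNA of mouse PDL was measured on 4 one-colour Agilent arrays, 1 per group, per the labels from total RNA made into Cy3-labelled cRNA. Values are spot intensity on a linear scale, which the authors read with Agilent Feature Extraction 11.5.1.1, background-subtracted and detrended per the file headers. The deposited series table holds the same intensity times 1 factor per array, 1.54 to 2.08, whose choice is not given in the sources used here. The genome build of the array design is not that of the gene table, so gene positions are not given apart from promoter windows.

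Probe signals were averaged over spots on the log2 scale, and each array's 75th percentile over its 56605 non-control probes was subtracted. Probes were named through RefSeq accessions (32994 probes, 58.3%), and the brightest probe stood for its gene. Genes well above background on both arrays of a pair counted as measured, and 2-fold as apart. Genotype and age were fitted with limma 3.58.1 (R 4.3.3) over genes whose probe passed background on 2 or more arrays. The fit was also run on simulated data that held genotype effects alone. That run does not cover age effects or genotype differences that turn with age. Other steps used Python 3.11.15 with numpy 2.4.6, pandas 2.3.3 and matplotlib 3.10.9. The number of arrays limits the precision, and technical errors cover no variation between mice.

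The genes of the set and the 13 lists were chosen with earlier results of these data known. Named genes are the 9 of the set, Mkx, the globin genes, up to 4 of each list whose differences were largest on average, and the 10 nearest in profile. The nearest in profile leave out bare clone or locus numbers and numbered olfactory receptors. The remaining ligament markers, Rag1, Rag2, Erfe, Trim58, Pklr, Add2 and Epb41 were named after their values were seen. Some genes that the rule selects are not reported here. Alternatives were normexp with an offset of 50, quantile normalization, median centring, the deposited scaled values, the mean over probes, filters on background, 1.5-fold and 3-fold, 2 technical errors, forms of the limma fit and, chosen after seeing the data, the dimmest probe of each gene.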

Additional observations from a re-analysis of the deposited data

Results flagged for a closer look

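The genotype difference pointed in opposite directions at 10 and 4 weeks for 7 genes, each with 1 array per group. The share of all genes with opposite signs was not counted. The difference at 10 weeks minus that at 4 weeks was 1.72 for Alas2 (0.48 and -1.24), 1.498 for Car1 (1.13 and -0.37), 1.57 for Rhag (1.05 and -0.52), 0.67 for Slc4a1 (0.53 and -0.13), 1.51 for Klf1 (0.99 and -0.52), 0.13 for Hemgn by its brighter probe (0.08 and -0.06) and 1.42 for Hbb-b2 (0.71 and -0.72), in log2 units. The age difference of Klf1 likewise pointed in opposite directions in Mkx-KO (1.37) and WT (-0.14), 1.51 apart. None of these differences was tested, since 4 arrays in 4 groups leave no residual spread. For Hemgn, for Slc4a1 at 4 weeks and for Klf1 in WT, at least 1 of the opposed values was within its technical error.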

How the results depend on the processing

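Of 160 values of the 8 genes over 5 alternatives of background correction, scaling and probe choice, 157 kept their sign, as did all 95 of at least 0.5 log2 units in the values reported. The exceptions were the brighter Hemgn probe at 10 weeks (-0.04) and Epb42 at 4 weeks (-0.02), both Mkx-KO against WT with normexp, and Klf1 between ages in WT with the deposited scaled values (0.22). Part of the kept signs was fixed by the method. The mean over probes can change only Car1, Klf1 and Hemgn, which have 2 probes each. Median centring and the deposited scaling shift all genes of a comparison alike. With normexp, the median of the 8 genes was 0.48 for Mkx-KO against WT at 10 weeks, -0.20 at 4 weeks and 0.66 for 10 against 4 weeks in Mkx-KO, 0 and 1 of the 8 were at least 2-fold apart at 10 weeks and between ages in Mkx-KO, and 150, 259, 815 and 705 of all genes were, in the order 10 weeks, 4 weeks, Mkx-KO, WT. With the deposited scaled values the medians between ages were 1.28 in Mkx-KO and 0.49 in WT, and 1 of the 8 was 2-fold apart at 10 weeks. Without the background filter 1384, 2071, 3445 and 2919 of all genes were 2-fold apart. At 1.5-fold 1468, 1546, 4298 and 3753 of all genes passed, with 5, 2 and 7 of the 8 in the first 3 comparisons, and at 3-fold 86, 246, 569 and 491 passed, with 0, 0 and 2 of the 8. With the dimmest probe of each gene, chosen after seeing the data, the median between ages in Mkx-KO was 1.33. limma called 31 genes for age with normexp and 5 with age alone, none of the 8, and 0 for genotype in all 10 forms. The values with the deposited scaling moved by a shift common to all genes of a comparison. Why the other values moved was not tested. No paired analysis was possible because the labels carry no replicate numbers and each group has 1 array. Dim spots, such as those of Rhag, carry the widest technical error.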
